A study of Mus musculus with 4 samples.

Results

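A total of 127 cells, chosen by their transcripts of complement C1q and of the myeloid adaptors Tyrobp and Fcer1g and labelled as embryonic heart macrophages, were described among 31152 passing cells (0.408%) of E10.5 mouse hearts. A passing barcode had 500 to 6000 genes, 500 to 50000 unique molecular identifiers (UMIs, each counting 1 captured mRNA molecule) and at most 20% of UMIs on mitochondrial genes. A selected cell had at least 5 UMIs of C1qa, C1qb, C1qc, Tyrobp and Fcer1g together, fewer than 10 UMIs of the cardiomyocyte gene Tnnt2 per 10000 UMIs, and at most 1 UMI of the endothelial gene Cdh5. The levels of these 7 genes therefore chose the cells and are given as a description.

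Hearts came from C57BL/6J embryos that were wild-type (Wt) or homozygous for the I383V variant of Cyp51 (Ho), the lanosterol demethylase of cholesterol synthesis. CRISPR/Cas9 is listed for both genotypes in the labels, and the variant is a germline change present in every cell. The hearts were dissociated with collagenase, red blood cells were lysed, and 2 droplet libraries per genotype were sequenced, named here Wt1, Wt2, Ho1 and Ho2. The number of embryos behind each library is not given in the sources used here, so a p-value measures the spread between these libraries, which may be technical.

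Macrophages of the early embryo arise from progenitors of the yolk sac and enter organs, the heart included, before blood formation in the bone marrow begins. They depend on the receptor Csf1r, engulf dying cells and debris, and break down their cargo in lysosomes. The same yolk sac progenitors also give rise to granulocyte-forming and platelet-forming cells, and Tyrobp and Fcer1g pass on the signals of activating receptors in several of these lineages.

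The rule found 25 of 9654 passing cells in Wt1 and 37 of 7618 in Wt2. It found 54 of 7420 in Ho1 and 11 of 6460 in Ho2. The selected cells were deep, with a median UMI count per cell of 20383 (Wt1), 27838 (Wt2), 25727.5 (Ho1) and 29315 (Ho2), against 10840, 14410, 16122 and 15993 in the remaining cells. Their summed counts were small, at 493042, 1028629, 1373596 and 336351 UMIs, so that Ho2 held the fewest cells and the fewest UMIs. Of the 148 passing cells with at least 5 UMIs of the 5 genes, 13 failed the limit on Tnnt2 and 8 that on Cdh5. Just inside the limit of 5 UMIs lay 12 cells with 5 to 7 UMIs, all without C1q, and just outside lay 13 cells with 3 or 4 UMIs. The 4 libraries shared 134 cell barcodes, and 2 selected cells had a barcode that another library also used. No barcode was selected in more than 1 library.

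The markers did not bear out the label for most of the selected cells. Only 42 cells held at least 5 UMIs of the 3 C1q genes, and 78 held none. Csf1r, the receptor on which macrophages depend, was found in 40 of these 42 cells and in 60 of all 127. It was found in 0.623%, 0.937%, 1.40% and 0.744% of the remaining cells of Wt1, Wt2, Ho1 and Ho2, and free RNA was not removed. Of the 85 cells with fewer than 5 UMIs of C1q, 47 held at least 5 UMIs of a granulocyte list of 6 genes, which Prtn3 and Mpo lead, 26 held at least 5 UMIs of a platelet list of 5 genes (Itga2b, Gp9, Gp1bb, Gp6 and Ppbp), 2 held both and 10 neither. The 127 cells are therefore called selected cells, and the groups are named by their leading genes as C1q cells, Mpo and Prtn3 cells, and platelet-gene cells. The limit of 5 UMIs between these groups was set after the values were seen, so the groups are described without a test, and the fits within them named among the alternatives were also chosen then. No platelet-gene cell held a Csf1r UMI, and 20 of the Mpo and Prtn3 cells did. Near the limits, C1q stood at 3 to 7 UMIs in 8 selected cells. Among the 85 cells with fewer than 5 UMIs of C1q, the platelet list stood at 3 to 7 UMIs in 14 and the granulocyte list in 9, so that the sizes of these groups depend on the limit. In addition, 7 C1q cells also held at least 5 UMIs of the granulocyte list, while none did so for the platelet list. Scrublet called 13 selected cells doublets, of which 2 were C1q cells, 6 were Mpo and Prtn3 cells and 2 were platelet-gene cells.

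**Figure D1:**
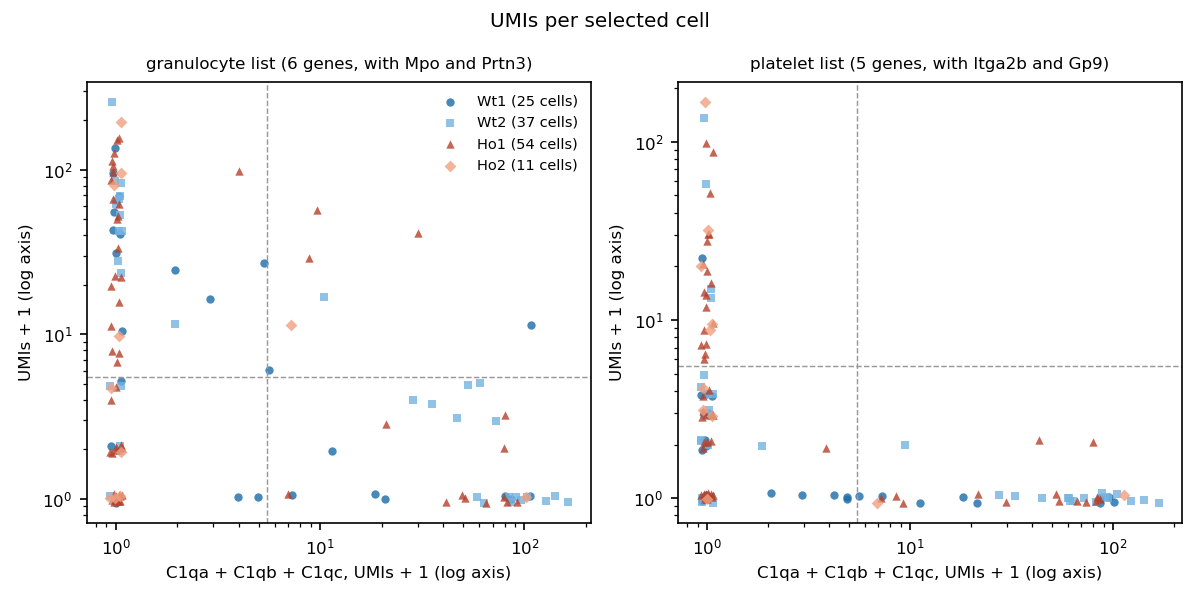
UMIs of the 3 C1q genes (x axis) against UMIs of the granulocyte list (left) and of the platelet list (right) in each of the 127 selected cells, all plus 1 on log axes with a small random shift, with colour and shape for the library and dashed lines at 5 UMIs. Most cells with many granulocyte-list or platelet-list UMIs sit at 0 UMIs of C1q, and 7 cells pass both limits on the left.

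The promoter of 1 leading gene of each group is shown, from RefSeq on GRCm38.p6. Each is given as up to 250 bases before a RefSeq start, ending before any start of a coding transcript inside them. Capitals mark GAGGAA, a core that PU.1 and other ETS factors can bind, on the given strand or, as TTCCTC, on the other strand. AGATAA, a core of the GATA type, was searched on both strands as well. The stretches are chr4:136886201-136886450 on the minus strand for C1qb, chr10:79879417-79879613 on the plus strand for Prtn3 and chr5:90772185-90772434 on the plus strand for Pf4. The annotated Prtn3 gene spans chr10:79874476-79883174, so its stretch lies inside that gene.
C1qb: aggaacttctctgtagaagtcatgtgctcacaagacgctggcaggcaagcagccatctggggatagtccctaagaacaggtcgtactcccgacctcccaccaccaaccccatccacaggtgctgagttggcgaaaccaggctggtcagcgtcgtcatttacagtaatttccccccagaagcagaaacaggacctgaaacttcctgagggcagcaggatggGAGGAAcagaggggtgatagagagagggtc
Prtn3: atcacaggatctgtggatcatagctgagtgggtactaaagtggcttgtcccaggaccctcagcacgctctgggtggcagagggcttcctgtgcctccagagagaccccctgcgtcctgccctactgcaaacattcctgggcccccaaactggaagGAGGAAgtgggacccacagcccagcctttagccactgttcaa
Pf4: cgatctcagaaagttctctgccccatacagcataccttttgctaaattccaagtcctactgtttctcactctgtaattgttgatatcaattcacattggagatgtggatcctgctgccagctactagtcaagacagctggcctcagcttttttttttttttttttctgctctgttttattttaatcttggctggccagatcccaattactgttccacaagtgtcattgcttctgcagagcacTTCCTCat
Each stretch held GAGGAA once and AGATAA not at all. Over 32851 RefSeq windows of 250 bases before a start, 23.3% held GAGGAA and 9.99% held AGATAA. Of the 25 leading genes described next, 16 had windows, 20 in all, of which 11 held GAGGAA and 1 held AGATAA. A match of letters is a description and was not tested as a binding site.

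Against the remaining passing cells, the selected cells carried the genes of white blood cells and platelets and had lower levels of those of the heart wall. Levels are UMIs per 1000000 UMIs of the summed cells (CPM), a scale on which each molecule counts once whatever its length. Of 7516 genes with at least 10 CPM as the mean of the levels in selected and remaining cells, 420 (5.59%) were at least 2-fold higher in the selected cells in each library and 873 (11.6%) at least 2-fold lower. The rule used this contrast, so the values carry no test. The 25 genes with the largest ratio, outside the rule and with at least 20 UMIs in each library, were spread over the groups, with 9 at their highest in platelet-gene cells, 8 in Mpo and Prtn3 cells and 8 in C1q cells. Of all 8132 genes with at least 20 UMIs in the selected cells, 32.9%, 33.4% and 33.8% were highest in these groups in the same order, so the split was close to that of all genes.

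Among the leading genes shared by myeloid cells, Spi1, which encodes PU.1, the factor that commits cells to the myeloid lineage, stood at 215, 269, 192 and 155 CPM in the selected cells of Wt1, Wt2, Ho1 and Ho2. In the remaining cells it stood at 0.258, 0.396, 0.629 and 0.418 CPM. Within the selected cells it was at 312 CPM in C1q cells, 262 CPM in Mpo and Prtn3 cells and 19.8 CPM in platelet-gene cells. Cd52, a small surface glycoprotein of leukocytes, was at 335, 360, 256 and 122 CPM in the libraries and came from C1q cells (454 CPM) and Mpo and Prtn3 cells (347 CPM). Rac2, the GTPase that moves the actin skeleton of blood cells, and Coro1a, an actin-binding protein of leukocytes, were found in all 3 groups, at 105 and 259 CPM even in platelet-gene cells, where each was lowest. Runx1, a factor of blood cell formation, was at 41.2, 81.4 and 71.7 CPM in C1q, Mpo and Prtn3, and platelet-gene cells. It was at 1.48 to 1.85 CPM in the remaining cells.

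**Figure D2:**
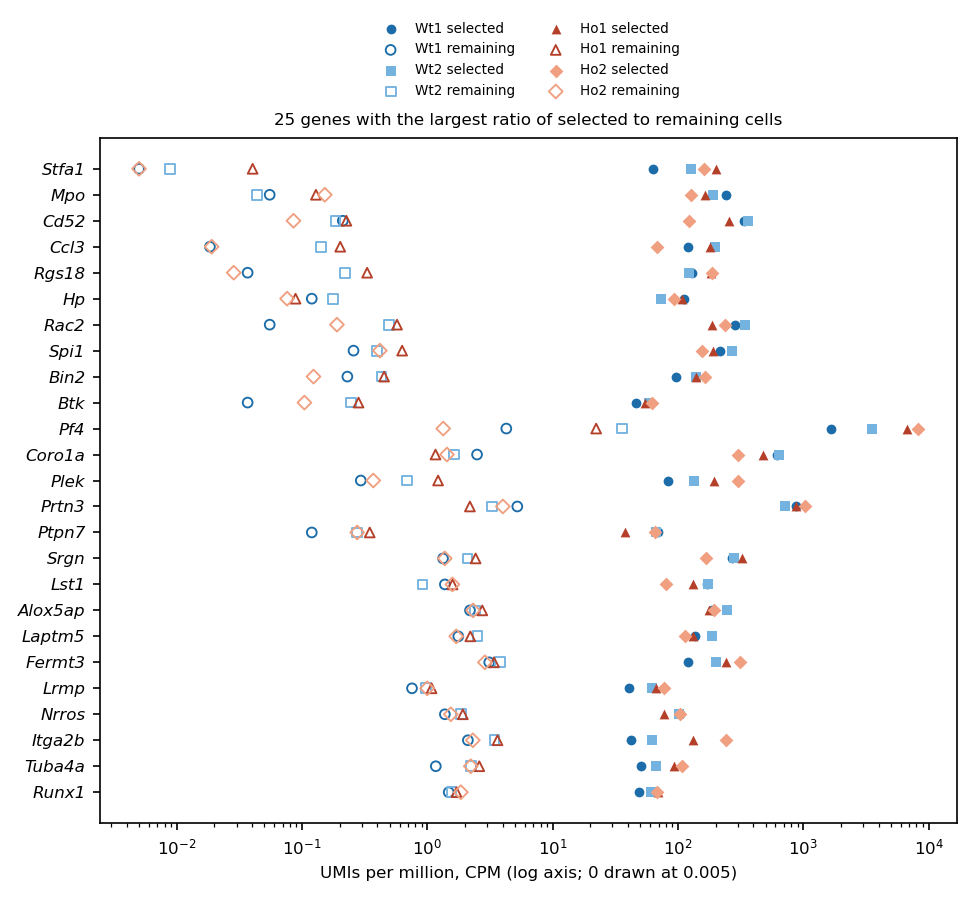
Level in CPM (x axis, log) of the 25 genes with the largest ratio of selected to remaining cells (y axis), in the selected cells (filled symbols) and the remaining cells (open symbols) of each of the 4 libraries. Each gene is higher in the selected cells of each library, and Pf4 reaches 8247 CPM in Ho2. There 1 cell holds 2200 of the 2774 Pf4 UMIs.

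The 42 C1q cells led for most genes of the list of macrophage receptors and lineage factors. Of its 27 genes with at least 20 UMIs, 23 were highest in C1q cells, beside 33.8% of all genes. C1qa, C1qb and C1qc, the chains of the first complement component, were at 497, 1169 and 958 CPM in C1q cells, and at 0 CPM in platelet-gene cells. These genes, which lie side by side on GRCm38 at chr4:136880129-136898803, chose the group. Csf1r was at 177 CPM, and at 132, 201, 173 and 134 CPM in the C1q cells of Wt1, Wt2, Ho1 and Ho2, so that its level moved by less than 2-fold between libraries. Aif1, an actin-bundling protein of macrophages, was as even, at 250, 283, 271 and 252 CPM. Adgre1, which encodes the F4/80 antigen, was found in 21 of the 42 cells at 33.0 CPM and in 1 Mpo and Prtn3 cell. Trem2, a lipid-sensing receptor of phagocytes, was at 137 CPM.

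Genes of tissue-resident macrophages were unevenly present in the C1q cells. Mrc1, the mannose receptor, was found in 28 of 42 cells at 134 CPM and in no cell of the other 2 groups. Cx3cr1, the receptor of fractalkine, was found in 37 cells at 190 CPM. Timd4, a receptor for the phosphatidylserine of dying cells, was found in 15 cells at 30.9 CPM, and Lyve1, a hyaluronan receptor, in 5 cells at 11.3 CPM. Ccr2, the chemokine receptor of monocytes, had 6 UMIs in all selected cells. Cd163, Cbr2, Clec4f, Cd209f and H2-Aa, markers of other resident or antigen-presenting macrophages, were at 0 UMIs among the selected cells, as were the monocyte genes Ly6c2 and Chil3. Plac8, another gene of the monocyte list, was present, at 239, 230, 197 and 131 CPM in the selected cells of Wt1, Wt2, Ho1 and Ho2 against 13.5 to 16.2 CPM in the remaining cells. It was at 345 CPM in Mpo and Prtn3 cells and 167 CPM in C1q cells.

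The lysosome genes followed the C1q cells. The list of 25 genes had 23 with at least 20 UMIs, and each of the 23 was at its highest in C1q cells, beside 33.8% of all genes. Its sum was 6211 CPM in C1q cells, 2058 CPM in Mpo and Prtn3 cells and 1316 CPM in platelet-gene cells, and 1809 to 2158 CPM in the remaining cells of the libraries. Ctsb, a cathepsin that cleaves proteins in lysosomes, was at 714, 1175, 860 and 1057 CPM in the C1q cells of Wt1, Wt2, Ho1 and Ho2. Lgmn, the asparaginyl endopeptidase legumain, was at 302, 479, 182 and 117 CPM in the same order. Against the remaining cells, 6 of 22 lysosome genes were at least 2-fold higher over all selected cells in each library and none lower, beside 5.59% of all genes.

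Haem and iron genes were also highest in the C1q cells, with 10 of 12 members of at least 20 UMIs leading there, beside 33.8% of all genes. Hmox1, the enzyme that opens the haem ring, was at 1042 CPM in C1q cells, 23.7 CPM in Mpo and Prtn3 cells and 4.58 CPM in platelet-gene cells. Its level differed between the libraries, at 140, 1437, 744 and 1863 CPM in the C1q cells of Wt1, Wt2, Ho1 and Ho2. Wt1 was the lowest, and Ho1 lay between both Wt libraries. A single cell of Wt2 held 309 of its 640 Hmox1 UMIs, and 1 cell of Ho2, which had 2 C1q cells, held 109 of its 114. Slc40a1, which encodes the iron exporter ferroportin, was found in 13 C1q cells, at 0, 75.3, 92.3 and 117 CPM.

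Chemokine genes were found in a part of the C1q cells. Ccl3 and Ccl4, which attract leukocytes, were found in 35 and 20 of the 42 cells, at 407 and 421 CPM. Ccl3 was also found in 21 of the 47 Mpo and Prtn3 cells, at 98.5 CPM, and was at 0 CPM in platelet-gene cells. Cxcl2, which attracts neutrophils, was found in 6 C1q cells, and 1 cell held 68 of the 143 UMIs of the selected cells. Of 9 chemokine and cytokine genes that reached 10 CPM, 6, with Pf4 and Tgfb1 among them, were at least 2-fold higher over the selected cells in each library, beside 5.59% of all genes. Apoe, the lipid carrier that takes up cholesterol leaving the cell, was at 887 CPM in C1q cells, against 201 CPM in Mpo and Prtn3 cells and 94.6 CPM in platelet-gene cells. Over all selected cells it was at 256, 627, 325 and 181 CPM in Wt1, Wt2, Ho1 and Ho2, against 244, 385, 351 and 261 CPM in the remaining cells, and 0 of 9 cholesterol efflux genes were at least 2-fold higher or lower in each library. Abca1, the pump that loads cholesterol onto such carriers, was at 27.8 CPM in C1q cells and 2.12 to 3.48 CPM in the remaining cells.

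The 47 Mpo and Prtn3 cells carried genes of granule proteins together with genes of blood progenitors. Prtn3, a serine protease of primary granules, was found in all 47 cells at 1846 CPM, and at 876, 710, 877 and 1035 CPM in all selected cells of Wt1, Wt2, Ho1 and Ho2. Mpo, the myeloperoxidase of the same granules, was found in 44 cells at 418 CPM. The granulocyte list chose this group, so these values are a description. Stfa1, a cystatin-type protease inhibitor, was at 332 CPM but in only 18 of the cells, and 1 cell held 205 of its 489 UMIs. Reads of Stfa1 may be shared with its close copies in the genome.

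Outside the list that chose them, the Mpo and Prtn3 cells led for the 4 progenitor genes, beside 33.4% of all genes. Myb, a factor that keeps progenitors dividing, was found in 31 of 47 cells at 71.1 CPM, and Kit, the receptor of stem cell factor, in 23 cells at 35.5 CPM. Cd34, a progenitor sialomucin, was at 103 CPM, against 38.2 CPM in C1q cells and 28.4 to 38.6 CPM in the remaining cells. Cpa3 and Hdc, a protease and the histamine-forming enzyme of mast cell and basophil lineages, were found in 13 and 12 cells, while Cma1, Mcpt4 and Tpsb2, genes of mature mast cells, were at 0. S100a9 and Ngp, genes of mature neutrophils, were at 0 as well.

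The 26 platelet-gene cells carried Pf4, a chemokine stored in platelet granules, at 24140 CPM, against 509 CPM in C1q cells and 2.96 CPM in Mpo and Prtn3 cells. Pf4 was not in the list that chose the group. Among all selected cells, 1 cell held 763 of the 816 Pf4 UMIs of Wt1 and 1 cell held 2269 of the 3634 of Wt2. In Ho1 and Ho2 the top cell held 1974 of 9188 and 2200 of 2774. Itga2b, the platelet fibrinogen receptor chain, and Gp9 and Gp1bb, parts of the receptor for von Willebrand factor, were each found in all 26 cells, at 451, 432 and 265 CPM. Ppbp, another chemokine of platelet granules, was found in 7 cells. Plek, the main kinase C substrate of platelets, and Fermt3, which switches on blood cell integrins, were at 529 and 578 CPM in these cells. Of the rule genes they held Fcer1g, which also serves the collagen receptor of platelets, at 650 CPM, and Tyrobp at 10.7 CPM. A further 19 passing cells that were not selected held at least 5 UMIs of the platelet list, 13 of them with fewer than 5 UMIs of the rule genes, so the 26 cells are not all such cells of the libraries.

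**Figure D3:**
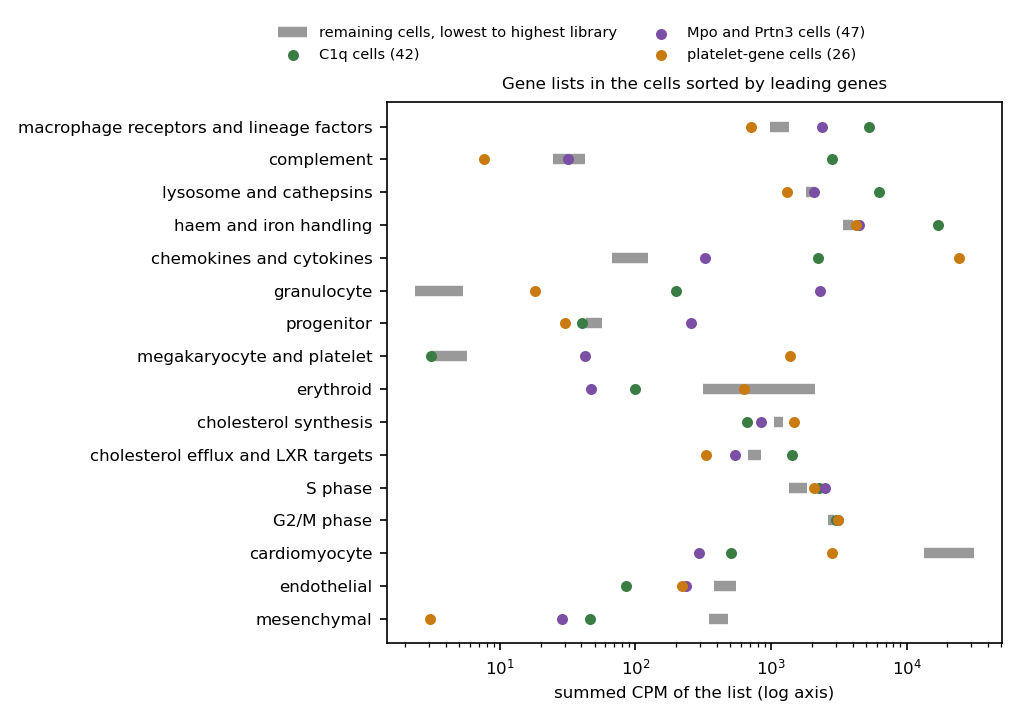
Summed CPM (x axis, log) of 16 gene lists (y axis) in the C1q cells, the Mpo and Prtn3 cells and the platelet-gene cells, summed over libraries, with a grey bar from the lowest to the highest library for the remaining cells. The complement and lysosome sums are highest in the C1q cells, at 2821 and 6211 CPM, and the cholesterol synthesis sum is highest in the platelet-gene cells, at 1487 CPM.

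Cholesterol synthesis, the pathway of the mutated enzyme, was spread unevenly over the groups. Of 21 pathway genes with at least 20 UMIs, 15 were highest in platelet-gene cells, 4 in Mpo and Prtn3 cells and 2 in C1q cells, beside 32.9%, 33.4% and 33.8% of all genes. The sum of the list was 1487, 840 and 662 CPM in these groups, against 1046 to 1231 CPM in the remaining cells. Idi1, which isomerizes the isoprenoid unit, was at 191 CPM in platelet-gene cells and 32 CPM in C1q cells. Hmgcs1, the synthase at the head of the mevalonate pathway, was at 22.3, 24.3, 35.7 and 35.7 CPM in the selected cells of Wt1, Wt2, Ho1 and Ho2 and at 88.1, 71.2, 73.5 and 93.5 CPM in the remaining cells. Of 21 pathway genes that reached 10 CPM, 2, with Hmgcs1 among them, were at least 2-fold lower in each library and 1 was at least 2-fold higher, beside 11.6% and 5.59% of all genes. Cyp51 itself was at 34.5, 31.1, 37.1 and 47.6 CPM in the selected cells and at 71.7, 61.9, 53.7 and 66.8 CPM in the remaining cells. Since the variant changes an amino acid, the level of the transcript does not check the genotype labels.

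Genes of other heart cells were lower in the selected cells. All 8 cardiomyocyte genes, all 6 mesenchymal genes and 4 of 6 endothelial genes were at least 2-fold lower in each library, beside 11.6% of all genes. The rule capped Tnnt2 and Cdh5, so the cardiomyocyte and endothelial counts are partly set by it and are a description. The most abundant endothelial gene, Egfl7, was close to the remaining cells, at 136, 134, 163 and 155 CPM in Wt1, Wt2, Ho1 and Ho2 against 157, 213, 203 and 184 CPM. The cardiomyocyte sum was 174, 926, 574 and 2979 CPM in Wt1, Wt2, Ho1 and Ho2, against 13340, 25073, 31446 and 25687 CPM in the remaining cells. Ho2 was highest in this sum, and Myl7, the atrial myosin light chain, was its most abundant gene. Single cells carried much of these sums. A platelet-gene cell of Ho2 held 742 of the 1002 UMIs of the list there and a platelet-gene cell of Wt2 held 661 of 953, and neither was called a doublet. A C1q cell of Ho1, called a doublet, held 224 of 788. The erythroid sum, led by Hbb-bh1, an embryonic globin, was 164, 148, 261 and 56.5 CPM against 315, 838, 2127 and 781 CPM in the remaining cells. Of the lymphoid list, Cd3e was at 0 and Nkg7, a granule gene of lymphocytes, had 7 UMIs, all in Mpo and Prtn3 cells. The sum of that list was 2.03, 1.94, 9.46 and 2.97 CPM, against 0.370 to 0.629 CPM in the remaining cells. In Ho1, 50 of 54 selected cells held Xist, the transcript of the inactive X chromosome, and none held a Y chromosome gene of a list of 4. In Wt1, Wt2 and Ho2 no selected cell held Xist and 15, 31 and 11 cells held a Y chromosome gene, so that Ho1 differed in sex from the other 3 libraries.

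Proliferation transcripts were found in the selected cells. After each cell was thinned to 2000 UMIs, a UMI of the proliferation genes Mki67 or Top2a was found in 21.7%, 37.8%, 37.7% and 36.4% of the selected cells of Wt1, Wt2, Ho1 and Ho2, with 2 and 1 shallower cells left out in Wt1 and Ho1. The remaining cells gave 25.1%, 21.8%, 23.8% and 23.4%, so that the selected cells were higher in 3 of 4 libraries in this draw. Without thinning the shares were 88.0%, 94.6%, 85.2% and 90.9% in the selected cells. These thinned shares come from 1 random draw per cell. Averaged over all possible draws, the expected shares were 27.1%, 30.4%, 35.5% and 30.1% in the selected cells and 25.6%, 21.5%, 23.2% and 23.2% in the remaining cells. By group, the expected share was 30.2% in C1q cells, 33.5% in Mpo and Prtn3 cells and 28.7% in platelet-gene cells. The level of Top2a in the selected cells, 101, 109, 146 and 92.2 CPM, overlapped the 120 to 139 CPM of the remaining cells. No S phase or G2/M gene passed 2-fold in each library. The S phase list sum was higher in the selected cells of each library, at 2397, 2446, 2235 and 2393 CPM against 1828, 1536, 1347 and 1587 CPM. The G2/M list sum was higher in Wt1, Wt2 and Ho1 but lower in Ho2, at 2949, 3076, 3409 and 2432 CPM against 2906, 2717, 2641 and 2711 CPM.

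Whether the mutation changed these cells was asked over libraries. Selected cells made up 0.259% of passing cells in Wt1 (exact 95% binomial interval 0.168 to 0.382) and 0.486% in Wt2 (0.342 to 0.669). They made up 0.728% in Ho1 (0.547 to 0.949) and 0.170% in Ho2 (0.0850 to 0.304), with intervals that cover counting error only. The highest and the lowest library were both Ho, and the Wt mean of 0.372% ± 0.160 (SD, n = 2) stood beside a Ho mean of 0.449% ± 0.394 (SD, n = 2). The difference of 0.0767 percentage points did not exceed the spread between libraries (exact two-sided permutation p-value 1, where 2 libraries against 2 cannot go below 0.333). It turned to -0.0367 without Wt1, to -0.202 without Ho1 and to -0.0484 when only C1q cells were counted. The Mki67 or Top2a share averaged 29.8% ± 11.4 over Wt libraries (SD, n = 2) and 37.0% ± 0.970 over Ho libraries (SD, n = 2, exact permutation p-value 1). The difference was 7.26 percentage points in the 1 draw and 4.07 averaged over all draws. Without thinning it turned to -3.25, and without Wt1 to -0.788.

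The makeup of the selected cells differed between the libraries. Counted as platelet-gene cells were 1 cell of Wt1, 4 cells of Wt2, 16 cells of Ho1 and 5 cells of Ho2, which is 4.00%, 10.8%, 29.6% and 45.5% of the selected cells. Scrublet called the 1 cell of Wt1 and 1 of the 5 cells of Ho2 doublets. C1q cells numbered 9, 17, 14 and 2, or 36.0%, 45.9%, 25.9% and 18.2%. In the first share the lower Ho library was above the higher Wt library, and in the second the genotypes were apart the other way. Mpo and Prtn3 cells numbered 11, 13, 19 and 4, or 44%, 35.1%, 35.2% and 36.4%. As shares of passing cells, platelet-gene cells made up 0.0104% and 0.0525% in Wt1 and Wt2 and 0.216% and 0.0774% in Ho1 and Ho2, while C1q cells made up 0.0932% and 0.223% against 0.189% and 0.0310%, with genotypes that overlapped.

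**Figure D4:**
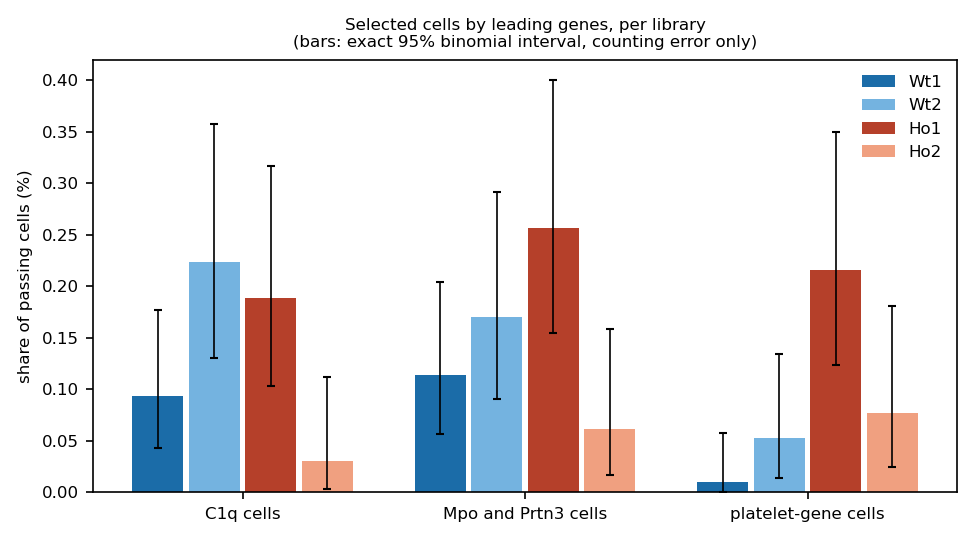
Share of passing cells (y axis, %) made up by C1q cells, Mpo and Prtn3 cells and platelet-gene cells (x axis) in each library, with exact 95% binomial intervals for counting error only. Platelet-gene cells make up 0.216% of Ho1 and 0.0774% of Ho2, above both Wt libraries, and the intervals of Wt2 and Ho2 overlap.

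edgeR called no gene between Ho and Wt in the summed selected cells. Its quasi-likelihood test covered 6214 genes, and 0 (0%) passed an adjusted p-value of 0.05, with a lowest value of 0.0975. Before adjustment 432 genes (6.95%) had a p-value under 0.05, and DESeq2 called 12. These 12 were Chpt1, Rab27b, Thbs1, Itga2b and Rap1b, which were higher in Ho, and Ccl2, Ccl12, C1qb, C1qc, Ctsc, Lgmn and Rpl39l, which were lower. C1qb and C1qc are genes of the rule, so their calls support nothing. In simulated sums of this depth 41 of 200 genes were recovered at a simulated log2 fold change of 1 and all 200 at 2. Changes of about 2-fold were therefore mostly out of reach. The recovery at 2 did not carry over to the measured sums. There Rab27b (log2 fold change 2.14) and Ccl2 (-2.64) were not called, each at an adjusted p-value of 0.122. The lack of calls therefore does not exclude changes of that size. In these sums, fewer cells of a kind and less RNA per cell cannot be told apart.

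Most of the genes with a low p-value were highest in platelet-gene cells or in C1q cells. Of the 432 genes, 188 (43.5%) were highest in platelet-gene cells, of which 183 were higher in Ho, beside 32.2% of all genes tested. A further 177 (41.0%) were highest in C1q cells, of which 161 were lower in Ho, beside 33.0% of all genes tested. The other 67 (15.5%) were highest in Mpo and Prtn3 cells, beside 34.9% of all genes tested, with 30 higher and 37 lower in Ho. The sum of the platelet list was 69.0, 234, 340 and 714 CPM in Wt1, Wt2, Ho1 and Ho2, led by Itga2b. A platelet-gene cell of Ho2 held 163 of the 240 UMIs of this list there, and also 742 UMIs of the cardiomyocyte list. A platelet-gene cell of Wt2 held 132 of 241. The complement list summed to 986, 1385, 548 and 384 CPM, led by C1qb. C1qa, C1qb and C1qc make up most of the complement sum and chose the cells, so it is a description of which cells were selected. All 4 tested platelet-list genes had both Ho libraries above both Wt libraries, beside 19.4% of all genes above and 19.4% below. The part of the makeup in the values that follow was not tested, other than by the values in cells of 1 group.

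Ccl12 (GRCm38 chr11:82101845-82103400) and Ccl2 (chr11:82035571-82037453), ligands of the monocyte receptor Ccr2, had low values in Ho. Ccl12 was at 73.8 and 43.9 normalized CPM in Wt1 and Wt2 and at 1.53 and 0 in Ho1 and Ho2, where 2 and 0 UMIs were counted (log2 fold change -5.36, SE 0.64, adjusted p-value 0.0975). Ccl2 was at 156 and 88.8 normalized CPM in Wt and 16.9 and 24.4 in Ho (log2 fold change -2.64, SE 0.37, adjusted p-value 0.122). edgeR called neither, DESeq2 called both, and the genotypes did not overlap. Without Ho1 the log2 fold change of Ccl12 was -8.10, a fitted value against a library at 0. In C1q cells alone the order was the same, with Ccl2 at 508 and 208 CPM in Wt1 and Wt2 and 65.5 and 67.1 CPM in Ho1 and Ho2, and Ccl12 at 258, 103, 5.95 and 0 CPM. The values of Ho2 come from 2 C1q cells. Few cells carried the transcripts, since Ccl12 was found in 14 selected cells, with 28 of the 35 UMIs of Wt1 in 1 cell and 26 of the 45 UMIs of Wt2 in 1 cell. For Ccl2, 1 cell held 54 of the 74 UMIs of Wt1 and 1 cell held 32 of the 91 UMIs of Wt2.

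Ctsc, the lysosomal dipeptidase that activates granule proteases, was also lower in value in Ho. Ctsc was at 373 and 436 normalized CPM in Wt and 217 and 162 in Ho (log2 fold change -1.06, SE 0.18, adjusted p-value 0.220). Within Mpo and Prtn3 cells Ctsc was at 339, 292, 178 and 166 CPM, which kept the order of the genotypes. Within C1q cells, where it was highest, it was at 581, 737, 521 and 403 CPM, with a smaller log2 fold change of -0.45. C1qc, also among the 10 genes, is a gene of the rule, and its values of 346, 468, 186 and 140 normalized CPM are given as a description with no test. Cx3cr1 was at 118, 96.6, 37.5 and 18.3 normalized CPM (log2 fold change -1.73, SE 0.30, adjusted p-value 0.220), and at 338, 210, 128 and 50.4 CPM in C1q cells.

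Rab27b, Thbs1, Cdc42ep5 and Prkar2b were higher in value in Ho and highest in platelet-gene cells. Rab27b, a GTPase of granule release, was at 29.5 and 38.1 normalized CPM in Wt1 and Wt2 and 125 and 198 in Ho1 and Ho2 (log2 fold change 2.14, SE 0.29, adjusted p-value 0.122). In platelet-gene cells alone it was at 502, 321, 448 and 395 CPM, with genotypes that overlapped. Thbs1, which encodes thrombospondin of platelet granules, was at 56.9, 71.2, 159 and 238 normalized CPM over all selected cells, but at 897, 624, 571 and 481 CPM in platelet-gene cells, where both Ho libraries lay below both Wt libraries. The platelet-gene cells of Wt1 are 1 cell, which Scrublet called a doublet and which held 59 UMIs of the erythroid list. Cdc42ep5, an effector of the GTPase Cdc42, was at 14.8, 14.6, 53.6 and 51.8 normalized CPM over all selected cells and at 215, 121, 174 and 86.3 CPM in platelet-gene cells. Prkar2b, a regulatory subunit of protein kinase A, was at 75.9, 86.9, 172 and 186 normalized CPM over all selected cells and at 502, 494, 514 and 333 CPM in platelet-gene cells.

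Chpt1 and Rpl39l rested on few cells. Chpt1, an enzyme of phosphatidylcholine synthesis, was at 8.43 and 4.88 normalized CPM in Wt and 62.1 and 110 in Ho (log2 fold change 3.68, SE 0.46, adjusted p-value 0.0975). A single cell of Ho1 held 75 of its 81 UMIs there, and 1 cell of Ho2 held 31 of 36. In Ho1 Chpt1 was at 142 CPM in Mpo and Prtn3 cells and 2.85 CPM in platelet-gene cells. In Ho2 Chpt1 was at 17.5 and 210 CPM in the same order. Rpl39l, a copy of a ribosomal protein gene whose reads may be shared with its relatives, had 26 and 40 UMIs in Wt1 and Wt2, in 3 cells each, and 0 in both Ho libraries. In C1q, Mpo and Prtn3, and platelet-gene cells Rpl39l was at 125, 3.57 and 287 CPM in Wt1. In Wt2 it was at 0, 102 and 0 CPM in the same order.

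**Figure D5:**
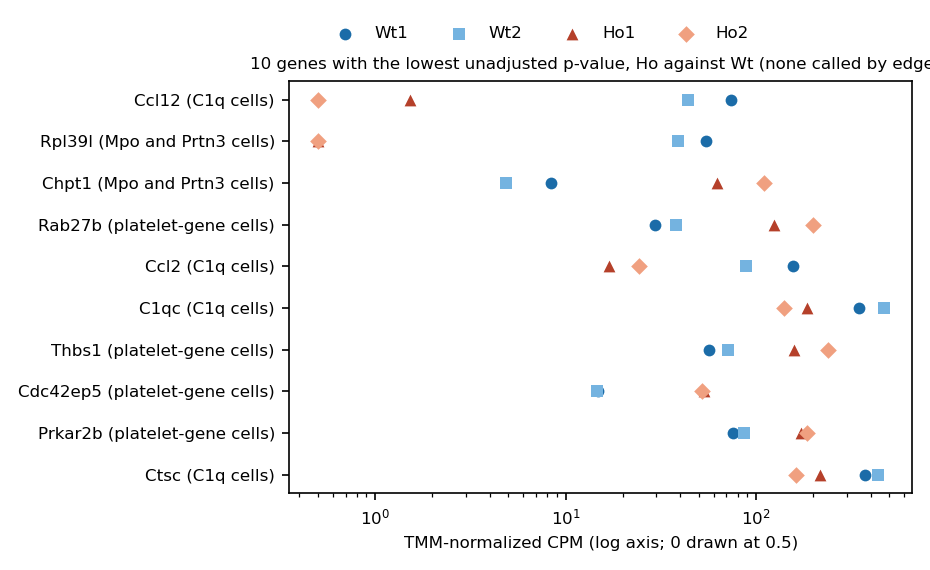
Normalized CPM (x axis, log) in the 4 libraries for the 10 genes with the lowest unadjusted p-value between Ho and Wt (y axis). The group of cells in which each gene is highest, over the 4 libraries together, is in brackets. The 2 genotypes are apart for each of the 10 genes, which were chosen for this and include C1qc, a gene of the rule. edgeR called none of them and DESeq2 called 8, with Ccl2 at 156 and 88.8 in Wt and 16.9 and 24.4 in Ho.

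Of 21 tested lysosome genes, edgeR called 0 and DESeq2 called 2 (Ctsc and Lgmn), beside 0 and 12 of all 6214. An unadjusted edgeR p-value under 0.05 was found for 10, beside 6.95% of all genes. All 21 had a fold change below 0, beside 3088 of all 6214, with a median log2 fold change of -0.70. In 14 of the 21 both Ho libraries lay below both Wt libraries, beside 19.4% of all genes. The median over all genes tested was 0.0018. The lysosome median was -0.26 without Wt2, -0.21 in C1q cells alone and -0.25 in the other cells alone. Of 24 tested macrophage receptor and lineage genes, edgeR and DESeq2 called 0, 10 had an unadjusted edgeR p-value under 0.05, beside 6.95% of all genes, and 20 had a fold change below 0, beside 3088 of all 6214, with a median of -0.56. In 17 of the 24 both Ho libraries lay below both Wt libraries, beside 19.4% of all genes, and in 2 above. This median ran from -1.05 without Ho1 to -0.32 without Wt2, with -0.37 without Ho2, and was -0.11 in C1q cells alone. Csf1r was at 59.0, 103, 57.5 and 33.5 normalized CPM (log2 fold change -0.76, SE 0.33, adjusted p-value 0.708), with both Ho values below both Wt values but Ho1 close to Wt1. Mrc1 was at 31.6, 49.8, 42.9 and 24.4 (log2 fold change -0.19, SE 0.35, adjusted p-value 0.969), with genotypes that overlapped. The log2 fold change of Csf1r was -1.35 without Ho1, -0.26 without Wt2 and -0.075 in C1q cells alone.

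Of 19 tested cholesterol synthesis genes, edgeR and DESeq2 called 0, and 5 had an unadjusted edgeR p-value under 0.05, beside 6.95% of all genes. A fold change above 0 was found for 16 of the 19, beside 3126 of all 6214, with a median log2 fold change of 0.35. The 2 Ho values exceeded the 2 Wt values for 11 of the 19, and the reverse held for 0, beside 19.4% of all genes each way. The median was 0.65 without Wt2, 0.57 without Ho1, 0.23 without Wt1, 0.21 in C1q cells alone and 0.15 in sums thinned to the smallest library. Msmo1, the C4-methyl sterol oxidase that acts soon after Cyp51, was at 21.1, 27.3, 54.4 and 54.9 normalized CPM in Wt1, Wt2, Ho1 and Ho2 (log2 fold change 1.12, SE 0.28, adjusted p-value 0.368). Idi1 was at 44.3, 65.4, 106 and 116 (log2 fold change 0.95, SE 0.24, adjusted p-value 0.369). Cyp51 was at 35.8, 31.2, 39.1 and 48.8 (log2 fold change 0.35, SE 0.29, adjusted p-value 0.883), with the Ho values above the Wt values by less than the test could call, and its log2 fold change was 0.55 without Ho1. Most of these genes were highest in platelet-gene cells, whose share of the selected cells was higher in both Ho libraries, without a test. Of 8 tested cholesterol efflux genes, edgeR and DESeq2 called 0, and 0 had an unadjusted edgeR p-value under 0.05, beside 6.95% of all genes. Apoe was at 266, 630, 342 and 186 normalized CPM, with overlap between the genotypes (log2 fold change -0.73, SE 0.39, adjusted p-value 0.809). Of 7 tested cardiomyocyte genes, which mark another cell type, edgeR and DESeq2 called 0. An unadjusted edgeR p-value under 0.05 was found for 2, beside 6.95% of all genes. All 7 had a fold change above 0, beside 3126 of all 6214, with a median log2 fold change of 1.65. That median was 0.062 without Ho2, 0.91 without Wt1, 2.51 without Ho1 and 3.6 without Wt2. Its part in the other differences was not tested.

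The genotype effect in the selected cells was also compared with that in the remaining cells. With the library as a block, the interaction was called for 84 of 16145 genes (0.52%), 49 with a more positive and 35 with a more negative effect of Ho in the selected cells. Of the 84 genes, 42 were highest in platelet-gene cells, 39 of them with the more positive effect, and 30 were highest in C1q cells, 26 of them with the more negative effect. The other 12 were highest in Mpo and Prtn3 cells and split 6 to 6. Of the genes tested between the genotypes, 32.2%, 33.0% and 34.9% were highest in these groups in the same order. Of 10 genes fixed by name and tested, 2 were called, beside 0.52% of all genes. The effect was more negative in the selected cells for Spi1 (difference of log2 effects -1.20, SE 0.30, adjusted p-value 0.0204) and for Apoe (-0.73, SE 0.19, adjusted p-value 0.0306). In the selected cells by themselves the log2 fold change of Spi1 was -0.43 (SE 0.19, adjusted p-value 0.708). The remaining cells held Spi1 at 0.258, 0.396, 0.629 and 0.418 CPM in Wt1, Wt2, Ho1 and Ho2. The Spi1 call was lost without Wt1, Wt2 or Ho1 and the Apoe call without Wt2 or Ho2, each left out alone. Without the block edgeR called 0 genes, and before adjustment 679 had a p-value under 0.05. One estimate of the spread served the small sums of selected cells and the large sums of remaining cells in these fits.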

How the data were processed

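Raw UMI counts per gene and barcode were deposited for 4 libraries of E10.5 hearts (2 Wt, 2 Ho), for barcodes that the authors' Cell Ranger 6.1.1 run on mm10 called as cells, without normalization. Seurat 4.1.0 is named for their later steps. The files hold 32285 genes and 109893733 (Wt1), 117034633 (Wt2), 127018819 (Ho1) and 107377100 (Ho2) UMIs. Genotype and replicate number came from the labels. Ambient RNA was not removed.

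Passing and selected cells were found by the rules given in the report, in Python 3.11.15. Doublets were called with Scrublet in scanpy 1.11.5, at a rate of 0.8% per 1000 cells, and kept in the main values. UMIs of the selected and of the remaining cells were summed per library. The sums of 2 Ho and 2 Wt libraries were tested with edgeR 4.0.16 (quasi-likelihood test, TMM factors, filterByExpr; R 4.3.3). Adjusted p-values in the report are edgeR's after Benjamini-Hochberg adjustment, called under 0.05. Log2 fold changes are fitted values, and normalized CPM use TMM factors. The interaction had library, cell class and class by genotype terms. Single values per library were compared by an exact two-sided permutation test, and exact (Clopper-Pearson) intervals at 95% were set on shares of cells. For cycling, each cell was thinned to 2000 UMIs in 1 random draw, and the expected share over all draws was added after the values were seen.

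Named genes were the 25 with the largest ratio to the remaining cells (at least 20 UMIs in each library, outside the rule). Named as well were genes called between genotypes by edgeR, with those of the 10 lowest unadjusted edgeR p-values, as edgeR called none. The most abundant members of 28 gene lists (363 genes in all) were also named. So were Cyp51, Apoe, Abca1, Mrc1, Lyve1, Timd4, Cx3cr1, Ccr2, Csf1r and Spi1. Other genes named, among them Msmo1, Slc40a1, Cpa3 and Hdc, were chosen after their values were seen. Some genes of the rule and lists are not reported here. The members and the lists were chosen with earlier results of these data known. Alternatives were RLE normalization, DESeq2 1.42.0, other filters on low counts, on UMIs of the rule genes, on doublets and on mitochondrial UMIs, thinned sums, replicate and library blocks, and leaving out each library. C1q cells alone and the other cells alone were added after the values were seen. On simulated sums with 200 changed genes, edgeR recovered 41, 200 and 200 genes at log2 fold changes of 1, 2 and 3 between genotypes, with 3, 18 and 7 unchanged genes called, and 19, 89 and 127 in the interaction, with 1, 0 and 1. The simulation drew sums and not cells, so it does not cover genes carried by 1 cell. Its recovery at a log2 fold change of 2 did not hold for the measured sums, where Rab27b and Ccl2 went uncalled. Sequences are from RefSeq on GRCm38.p6, and starts of coding transcripts from GENCODE on the same genome.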

Additional observations from a re-analysis of the deposited data

Results flagged for a closer look

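The genotype effect differed between the selected and the remaining cells for 84 genes by the interaction test of edgeR with the library as a block, and for 0 without it. Among the 10 genes with the lowest p-values between the genotypes, 8 were called in this test, but those genes were chosen on the same sums, so the count is no independent support. The difference of the log2 effects (selected minus remaining cells) was 3.53 for Chpt1, 2.26 for Rab27b, 1.84 for Cdc42ep5, 1.38 for Prkar2b and 1.34 for Thbs1. It was -3.18 for Ccl2 and -1.23 for Ctsc. For Rpl39l it was -15.16, a fitted value of a gene at 0 in the selected cells of both Ho libraries, which depends on the fit and gives no size. It was also called for Spi1 (-1.20) and Apoe (-0.73), genes fixed by name. Without the block none of the 10 called genes named here was called, though the differences were of about the same size. They were 3.54 for Chpt1, 2.20 for Rab27b, -2.99 for Ccl2, -1.20 for Ctsc, -1.17 for Spi1 and -0.75 for Apoe. Leaving out a library ended the call of Rpl39l, Ccl2, Cdc42ep5 and Prkar2b (without Ho1), of Thbs1 and Cdc42ep5 (without Wt2), of Prkar2b (without Wt1) and of Thbs1 (without Ho2), while Chpt1, Rab27b and Ctsc stayed called in each. The call of Spi1 ended without Wt1 (-1.08), Wt2 (-1.40) or Ho1 (-1.07) and without Scrublet doublets (-1.11), and that of Apoe without Wt2 (-0.41) or Ho2 (-0.56). In the remaining cells Rpl39l was at 0.156, 0.528, 0.605 and 0.266 CPM and Chpt1 at 28.5, 28.2, 28.7 and 32.3 CPM in Wt1, Wt2, Ho1 and Ho2. As given above, the shares of C1q cells and platelet-gene cells among the selected cells lay apart between Wt and Ho libraries, without a test. The part of these shares in the differences was not tested.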

How the results depend on the processing

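Between the genotypes, 0 genes were called by the test as reported, with RLE normalization, with at least 10 counts in every library, with at most 10% mitochondrial UMIs, in sums thinned to the smallest library, in C1q cells alone and in the other cells alone. With the replicate number as a block 0 were called too. Same-numbered libraries deviated from their genotype means with a correlation of -0.015. With 2 libraries per genotype the crossed value is the same with the other sign. Whether the numbers mark shared handling cannot be told from 2 pairs. DESeq2 called 12, no filter on low counts 170, at least 10 UMIs of the rule genes 3, and leaving out Scrublet doublets 13. Leaving out a library gave 73 (without Wt1) to 120 calls (without Wt2 or Ho1, each), and 94 without Ho2, with the lone library of a genotype assumed to vary like the others. The cause of these changes was not tested. The interaction count of 84 became 0 without the library block and ranged from 50 (without Wt2) to 100 (without Ho1) when a library was left out. The difference in the share of selected cells ran from -0.202 to 0.355 percentage points over left-out libraries and was -0.0484 for C1q cells alone. That in the Mki67 or Top2a share ran from -0.788 to 15.3, and was -4.67 for a UMI of any G2/M gene, -3.25 without thinning and 4.07 averaged over all draws. Among the named genes the genotype fold change turned for Apoe without Wt2 (0.046, lowest value without Ho1 at -1.31), for Mrc1 in thinned sums (0.20), without Wt2 (0.22, lowest value without Ho1 at -0.81), without Ho2 (0.012) and in C1q cells alone (0.50), and for Spi1 in C1q cells alone (0.0068). The interaction value of C1qc ran from -0.29 without Wt2 to 5.57 without Ho1. C1qc is a gene of the rule, so this value is a description and no test. The list medians moved by more than the spread between libraries in 44 settings of a list and by less in 222. Ho2 had the fewest selected cells, 11.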
